A study of Mus musculus with 4 samples.

Results

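The collagen chains are the genes whose symbol in the platform annotation reads Col, a number, the letter a and a number. There were 42 of them among 18193 genes with a single symbol, read by 82 probe sets, and 27 had more than 1. The brightest probe set of a chain, by its mean log2 signal over the arrays, stands for it. The levels come from liver RNA of male mice hybridised to 4 Affymetrix 3' arrays, 1 array per group. The groups were wild-type mice on chow (WT chow), LASS2-/- mice on chow (LASS2-/- chow), wild-type mice on a high-fat diet (WT HFD) and LASS2-/- mice on the high-fat diet (LASS2-/- HFD). LASS2 is the former name of Cers2, a ceramide synthase of very-long-chain ceramides. Fat supplied 10% of calories in the chow and 60% in the high-fat diet, and the diets began when the mice were 3 weeks old. All mice were kept in a barrier facility with free access to food and water. The strain, the age at sampling, the kind of LASS2 allele and whether livers were pooled for an array are not given in the labels.

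Collagens are proteins of the extracellular matrix built from chains that wind around each other in a triple helix. Fibrillar collagens such as types I, III and V form the tensile fibres that accumulate in a scarred liver, where stellate cells and portal fibroblasts are known producers. Type IV collagen forms the meshwork of basement membranes, type VI forms beaded filaments, fibril-associated collagens decorate the fibres, and type XVIII is the precursor of endostatin and is made by hepatocytes among other cells. The design sets the chains against diet in each genotype and against genotype on each diet.

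Every group rests on 1 array, so no value has a spread between animals. The targeted gene, Cers2, read 12.46 log2 on WT chow, 12.32 on LASS2-/- chow, 12.25 on WT HFD and 12.32 on LASS2-/- HFD. It was not lower on both arrays labelled LASS2-/-, so each genotype below is the one on the label. Whether that probe set lies inside the altered part of the gene was not determined. The 4 hepatocyte markers measured, Alb, Apoa1, Ttr and Cyp3a11, were bright on all arrays, with Alb between 15.02 and 15.27. The median log2 signal over all probe sets was 6.17, 6.28, 6.19 and 6.19 on the arrays in the order WT chow, LASS2-/- chow, WT HFD and LASS2-/- HFD. This median serves as the limit below which a level is treated as unmeasured.

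Of the 42 chains, 25 reached the array median on at least 1 array, which is 59.5% of them, against 68.4% of all genes. Of them, 16 chains reached it on all 4 arrays, and 19 had a mean signal at or above the mean of the medians. By family, 8 of 11 fibrillar chains, 4 of 6 basement membrane chains, 3 of 5 beaded-filament chains and 5 of 9 fibril-associated chains reached the median on any array. In the smaller families these were 1 of 3 short-chain network chains, 1 of 2 multiplexins, 2 of 4 transmembrane collagens, and Col7a1 but not Col26a1. Since a chain may pass on the strength of its high group alone, limma calls and 2-fold counts for diet and for genotype are given beside the 42. Direction counts cover only the 19.

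**Figure D1:**
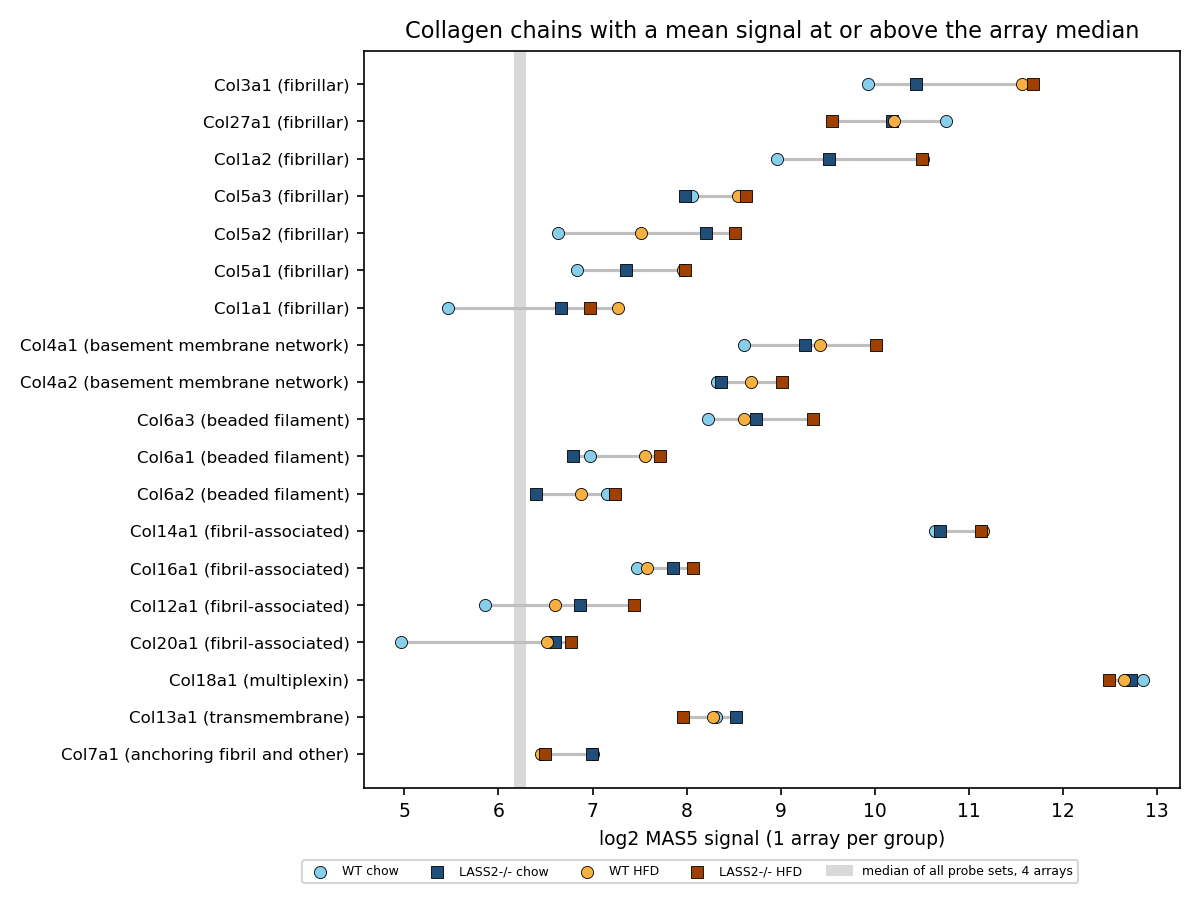
Log2 MAS5 signal (x axis) of the 19 collagen chains with a mean at or above the array median, 1 point per array and 1 row per chain, with the family in brackets. The grey band spans the medians of the 4 arrays, and the points of Col3a1 and Col1a2 on both high-fat arrays lie to the right of those on both chow arrays.

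The promoter windows of the chains that rose most with diet and of the chain that passed limma as lower with both factors are printed here. For a head-to-head pair only the stretch where the windows overlap is printed. RefSeq windows on GRCm38.p6, from 250 bases before to 50 after an annotated start, were found for 33 of the 42 chains, in 36 windows. Capitals mark matches, on either strand, to the GC box GGGCGG, the CCAAT box CCAAT or the TATA box TATAAA. The windows are Col3a1 at chr1:45311288-45311587 on the plus strand, Col1a2 at chr6:4505368-4505667 on the plus strand and Col27a1 at chr4:63215162-63215461 on the plus strand. The last entry is the stretch of 78 bases at chr8:11312777-11312854, plus strand, where the windows of Col4a1 and Col4a2 overlap.
Col3a1: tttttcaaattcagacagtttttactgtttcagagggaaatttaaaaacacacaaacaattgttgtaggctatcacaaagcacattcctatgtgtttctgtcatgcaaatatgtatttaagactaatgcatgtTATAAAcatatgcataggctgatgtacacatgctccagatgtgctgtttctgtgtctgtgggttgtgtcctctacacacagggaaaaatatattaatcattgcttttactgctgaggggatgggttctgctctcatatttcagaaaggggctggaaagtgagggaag
Col1a2: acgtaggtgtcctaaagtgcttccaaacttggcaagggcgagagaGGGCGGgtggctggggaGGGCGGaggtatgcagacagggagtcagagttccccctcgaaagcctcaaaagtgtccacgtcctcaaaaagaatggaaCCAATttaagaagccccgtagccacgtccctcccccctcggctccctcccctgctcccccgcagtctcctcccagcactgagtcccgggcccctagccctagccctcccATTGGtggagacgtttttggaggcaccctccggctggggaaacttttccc
Col27a1: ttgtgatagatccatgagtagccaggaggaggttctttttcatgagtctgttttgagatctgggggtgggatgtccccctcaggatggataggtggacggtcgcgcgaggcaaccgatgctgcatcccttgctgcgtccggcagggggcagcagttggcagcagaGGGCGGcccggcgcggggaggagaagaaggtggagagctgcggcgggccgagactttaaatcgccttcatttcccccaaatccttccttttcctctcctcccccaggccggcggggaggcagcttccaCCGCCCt
Col4a1 and Col4a2 shared: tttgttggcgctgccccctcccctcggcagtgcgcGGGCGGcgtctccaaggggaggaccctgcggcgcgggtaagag
Col1a2 held 2 GC boxes and 2 CCAAT boxes, Col27a1 held 2 GC boxes, and the Col3a1 window held 1 TATA box and neither of the others. Over all windows of the chains, 22 of 36 (61.1%) held a GC box, against 35.7% of 32851 RefSeq windows of that length. A CCAAT box was in 36.1% of the chains' windows against 37.4%, and a TATA box in 13.9% against 13.6%. A match is a string of letters anywhere in the window, at any distance from the start, and does not show that a factor binds there. Col4a1 and Col4a2 lie on opposite strands, and both annotated starts fall inside this shared stretch, which the genes leave in opposite directions. No base of the stretch lies upstream of both starts, so it is not the promoter of the pair. The stretch held 1 GC box. The whole windows, not printed, held 1 GC box and 1 CCAAT box for Col4a1. For Col4a2 they were 3 GC boxes and 1 CCAAT box.

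On the high-fat diet most of the 19 brighter chains read higher than on chow, in both genotypes. Of the 19 chains with a mean at or above the median, 14 were higher on both high-fat arrays, 4 were lower on both and 1 went in opposite directions. Over all 10950 genes of that brightness, 36.8% were higher and 31.6% lower on both. Of the 14 chains, Col1a1, Col12a1 and Col20a1 were under the median on WT chow, so their rise in wild type starts from an unmeasured level. With a floor at the array median, 14 chains were still higher in wild type and 15 in LASS2-/-. Without a floor, 52.3% of all 10950 genes were higher on the diet in wild type and 52.8% in LASS2-/-. The median log2 ratio of high-fat diet over chow was 0.52 for the chains in wild type and 0.56 in LASS2-/-, against 0.02 and 0.03 over all those genes. With levels floored at the array median these became 0.42 and 0.56 for the 19 chains and 0.36 and 0.31 for the 25 chains that reached the median on any array. Over averaged probe sets (18 chains, floored) they were only 0.059 and 0.083. After quantile normalization, and after scaling to equal medians, the numbers higher stayed 14 in wild type and 15 in LASS2-/-. The WT and LASS2-/- diet ratios share no array.

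These values were also tested with limma in an additive model of diet and genotype over 12444 genes, in which the disagreement between the genotypes is the error. In that fit, 4 of the 25 chains tested (of 42) rose with the diet at adjusted p below 0.05, where 6.16% of the tested genes rose, and 1 fell, where 5.02% of the tested genes fell. Unadjusted, 11 chains were higher and 2 lower at p below 0.05, against 1664 and 1296 of the tested genes. The fit has 1 residual degree of freedom and draws its error mostly from genes of like signal, with a weight of 12.4 degrees of freedom. Without that trend in signal 0 genes passed, while 1789 had an unadjusted p below 0.05. Taken as plain ratios, 4 chains (25 tested, of 42) had at least a 2-fold higher signal in wild type (2.14% of the tested genes). In wild type 0 had a lower one (1.25%), and in LASS2-/- 1 was higher (3.13%) and 1 lower (1.90%). For these fold values, here and below, a level under the array median was set to that median. Limma, and the log2 medians above that are not called floored, used the signals without a floor.

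**Figure D2:**
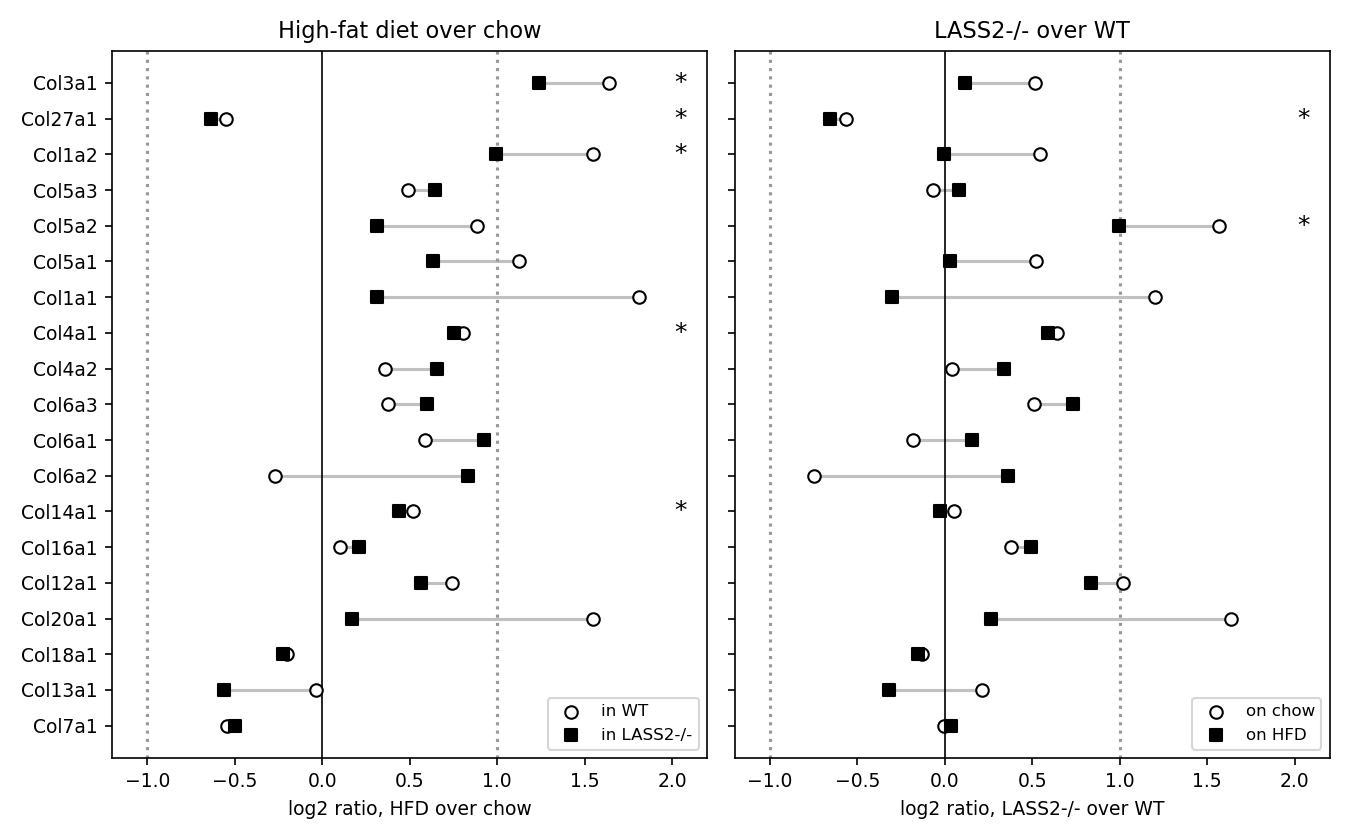
Log2 ratios of the same 19 chains, high-fat diet over chow (left) and LASS2-/- over wild type (right). Circles and squares are the ratios from the separate array pairs, dotted lines mark a 2-fold difference, and an asterisk marks adjusted p below 0.05 in limma, which 5 chains reached for diet and 2 for genotype.

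Among the fibrillar collagens, Col3a1 and Col1a2 rose most clearly. Col3a1, the chain of type III collagen, had a log2 signal of 9.92 on WT chow, 10.44 on LASS2-/- chow, 11.56 on WT HFD and 11.68 on LASS2-/- HFD. Both high-fat arrays were above both chow arrays, by 3.12-fold in wild type and 2.36-fold in LASS2-/-. In limma the mean log2 diet change was 1.44 ± 0.12 (moderated SE, 4 arrays, adjusted p = 4.95e-06), the only chain at least 2-fold higher in both genotypes. A separate probe set of Col3a1 read 6.37, 5.77, 7.64 and 7.89 in the same array order, again higher on both high-fat arrays, though under the median on LASS2-/- chow.

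Col1a2 encodes the alpha 2 chain of type I collagen. It stood at 8.96 on WT chow, 9.51 on LASS2-/- chow, 10.51 on WT HFD and 10.50 on LASS2-/- HFD. The high-fat arrays were nearly equal, and the genotype labels differed on chow alone, by 1.46-fold. The diet ratios were 2.92-fold and 1.99-fold, and the limma change was 1.27 ± 0.15 (adjusted p = 9.47e-05). A dimmer probe set of Col1a2 read 5.57, 2.88, 7.46 and 7.90 and reached the median on the high-fat arrays alone. Its partner Col1a1, the alpha 1 chain of type I collagen, was dim. It read 5.46, 6.66, 7.27 and 6.97 in the order WT chow, LASS2-/- chow, WT HFD and LASS2-/- HFD, so it was under the array median on WT chow. On the diet it was brighter by at least 2.14-fold in wild type and by 1.24-fold in LASS2-/-, and limma gave 1.06 ± 0.48 (adjusted p = 0.191), which did not pass.

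The type V chains, which initiate and limit fibril growth, were each higher on the high-fat arrays, and none of them passed limma for diet. Col5a1 read 6.83 on WT chow, 7.35 on LASS2-/- chow, 7.96 on WT HFD and 7.98 on LASS2-/- HFD, 2.18-fold and 1.55-fold higher on the diet (0.88 ± 0.27, limma adjusted p = 0.0558). A second Col5a1 probe set, nearly as bright, read 7.33, 6.71, 7.42 and 7.80 in the same array order. It was only 0.09 log2 higher on the diet in wild type but 1.09 higher in LASS2-/-. Col5a3 read 8.05, 7.98, 8.54 and 8.62 in that order, with nearly equal values within each diet and ratios of 1.41-fold and 1.56-fold (limma adjusted p = 0.0875). Col5a2 read 6.64 on WT chow, 8.20 on LASS2-/- chow, 7.52 on WT HFD and 8.51 on LASS2-/- HFD. Both LASS2-/- arrays of Col5a2 lay above both wild-type arrays. Its diet ratios were 1.84-fold and 1.24-fold, with a limma diet change of 0.60 ± 0.26 (adjusted p = 0.171).

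Col27a1, a fibrillar collagen best known from cartilage, went the other way. Its log2 signal was 10.75 on WT chow, 10.18 on LASS2-/- chow, 10.20 on WT HFD and 9.55 on LASS2-/- HFD. The array with neither the diet nor the LASS2-/- label was highest and the array with both was lowest. The diet change in limma was -0.59 ± 0.13 (adjusted p = 0.00763), with ratios of 1.46-fold and 1.55-fold lower. A second probe set read 9.41, 8.66, 8.97 and 8.52 in the same order and shared the highest and the lowest array, with a smaller mean diet change of -0.29. Over averaged probe sets the diet change was -0.44 and did not pass (limma adjusted p = 0.0992).

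The basement membrane chains Col4a1 and Col4a2, which join in the same type IV molecule, were both higher on the high-fat arrays. Col4a1 read 8.61 on WT chow, 9.25 on LASS2-/- chow, 9.41 on WT HFD and 10.01 on LASS2-/- HFD. The diet ratios were 1.74-fold in wild type and 1.69-fold in LASS2-/-, and the limma change was 0.78 ± 0.15 (adjusted p = 0.0038). Col4a2 read 8.32, 8.36, 8.68 and 9.02 in that order, 1.28-fold and 1.57-fold higher, and its limma change of 0.51 ± 0.18 did not pass (adjusted p = 0.100). The second Col4a1 probe set was at 7.63 on WT chow, 8.20 on LASS2-/- chow, 7.44 on WT HFD and 8.69 on LASS2-/- HFD, so it was higher with the diet in LASS2-/- but not in wild type. The mean of both Col4a1 probe sets did not pass for diet (log2 change 0.47, limma adjusted p = 0.163). The remaining type IV chains were dim: Col4a5 reached the median on 2 arrays, Col4a6 on 1, and Col4a3 and Col4a4 on 0.

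Type VI collagen assembles from the chains encoded by Col6a1, Col6a2 and Col6a3, and with the brightest probe sets none of them passed limma. Col6a3 read 8.23 on WT chow, 8.74 on LASS2-/- chow, 8.60 on WT HFD and 9.34 on LASS2-/- HFD. Its diet ratios were 1.30-fold and 1.52-fold higher (limma adjusted p = 0.0972). Col6a1 read 6.97, 6.79, 7.56 and 7.71 in that order, with both high-fat arrays above both chow arrays (1.5-fold and 1.90-fold, limma adjusted p = 0.141). Col6a2 read 7.15, 6.40, 6.88 and 7.24, and on the diet it was 1.20-fold lower in wild type but 1.78-fold higher in LASS2-/-. It was the only one of the 19 chains with opposite diet directions, and its second probe set, at 4.74, 6.91, 7.45 and 7.83, was higher on the diet in both genotypes though under the median on WT chow. The brightest set is of a type (_x_at) that may cross-hybridise, and in the fit without such sets the second one stood for Col6a2 and passed for diet (1.81 ± 0.46, limma adjusted p = 0.0199).

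Among the fibril-associated collagens, Col14a1, which sits on the surface of interstitial fibrils, rose with the diet. It read 10.64 on WT chow, 10.69 on LASS2-/- chow, 11.15 on WT HFD and 11.13 on LASS2-/- HFD. The arrays of a diet were nearly equal, the diet ratios were 1.43-fold and 1.35-fold, and the limma change was 0.48 ± 0.11 (adjusted p = 0.0133). A second probe set read 8.69, 8.97, 9.07 and 8.92, which is 0.38 log2 higher on the diet in wild type but -0.05 in LASS2-/-. With the mean of its 3 probe sets, of which 1 was under the median on all arrays, the log2 change turned to -0.24 and did not pass (limma adjusted p = 0.550). Col16a1 read 7.48, 7.86, 7.58 and 8.07 in the order WT chow, LASS2-/- chow, WT HFD and LASS2-/- HFD. Its arrays ordered by genotype label rather than diet, and limma passed neither (adjusted p = 0.758 for diet and 0.604 for genotype). Col12a1 and Col20a1 were under the median on WT chow and above it on the other arrays. Col12a1 read 5.85, 6.87, 6.60 and 7.44 and Col20a1 read 4.97, 6.60, 6.51 and 6.77, and neither passed limma for diet (adjusted p = 0.370 and 0.407). A dimmer Col20a1 probe set read 4.95, 7.15, 4.80 and 6.89, so it reached the median on the LASS2-/- arrays alone. Its diet ratio in LASS2-/- was -0.26 log2, opposite to that of the brightest set.

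The brighter chains that were lower on the high-fat arrays, besides Col27a1, were Col18a1, Col13a1 and Col7a1. Col18a1, the endostatin precursor, read 12.84 on WT chow, 12.72 on LASS2-/- chow, 12.64 on WT HFD and 12.49 on LASS2-/- HFD. It was 1.15-fold and 1.17-fold lower, did not pass limma (adjusted p = 0.151), and its second probe set was 0.10 and 0.14 log2 higher instead. Col13a1, a transmembrane collagen of cell adhesion sites, read 8.31, 8.52, 8.27 and 7.96. Col7a1, the chain of the anchoring fibrils of skin, read 7.00, 6.99, 6.46 and 6.49, with each diet's arrays nearly equal. Neither passed limma for diet (adjusted p = 0.444 for Col13a1 and 0.478 for Col7a1).

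The genotype label separated the chains less evenly. Of the 19 brighter chains, 9 were higher on both LASS2-/- arrays, 2 were lower on both and 8 went in opposite directions on the diets, against 29.1% higher and 27.1% lower over all 10950 genes. Of the 9 chains, Col12a1 and Col20a1 were under the median on WT chow, so their chow ratios start from an unmeasured level. The median log2 ratio of LASS2-/- over wild type was 0.38 for the chains on chow and 0.12 on the high-fat diet, against 0.00 and 0.01 over all those genes. Floored, the medians were 0.15 and 0.03 over the 25 chains that reached the median on any array, and 0.02 and 0.10 over averaged probe sets. With arrays scaled to equal medians, the median over all these genes moved to -0.10 on chow and that of the chains to 0.28. The count of higher chains on chow then changed from 13 to 11 of 19, as Col14a1 and Col4a2 turned lower. As deposited, 50.5% of all 10950 genes were higher with the label on chow. Quantile normalization turned Col5a1 lower on the high-fat diet. In limma 1 of the 25 chains tested (of 42) rose with the label, where 0.514% of the tested genes rose. Also, 1 chain fell, where 0.338% of the tested genes fell. Unadjusted, 5 chains were higher and 1 lower at p below 0.05, against 731 and 556 of the 12444 tested genes. As plain ratios, 2 chains (25 tested, of 42) were at least 2-fold higher on chow (1.17% of the tested genes). On chow 0 were lower (0.426%), and on the high-fat diet 0 were higher (1.48%) and 0 lower (0.490%).

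Col5a2 was the chain that rose. The LASS2-/- array exceeded the wild-type array by 2.97-fold on chow and by 1.99-fold on the high-fat diet, with a limma change of 1.28 ± 0.26 (adjusted p = 0.0361). Its adjusted p lay between 0.0298 and 0.741 over 8 other settings and passed in 3 of them. Its other probe set was under the median on all arrays. Col27a1 was the chain that fell, 1.48-fold lower on chow and 1.57-fold lower on the high-fat diet (-0.61 ± 0.13, limma adjusted p = 0.0401), and it too passed in 3 of the 8 settings. For each of them, the fits with quantile normalization, with equal medians, with the mean of all probe sets, with no filter on signal and without trend did not pass.

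Col4a1 and Col6a3 were higher on both LASS2-/- arrays without passing. Col4a1 was 1.56-fold higher on chow and 1.51-fold on the high-fat diet (0.62 ± 0.15, limma adjusted p = 0.0904), and its second probe set was 0.57 and 1.25 log2 higher. Col6a3 was 1.42-fold and 1.66-fold higher (0.62 ± 0.18, limma adjusted p = 0.159). With the brightest probe sets, the LASS2-/- HFD array was the highest of the 4 for Col4a1, Col4a2 and Col6a3, and WT chow the lowest. The same order held for Col3a1, Col5a1, Col5a2, Col16a1, Col12a1 and Col20a1, so it was not particular to these chains. On the second Col4a1 probe set the lowest array was WT HFD, at 7.44. Col12a1 was at least 1.62-fold higher on chow and 1.79-fold on the high-fat diet (limma adjusted p = 0.441), and its second probe set was 0.35 log2 higher on the high-fat diet and under the median on both chow arrays.

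For Col3a1, Col1a2, Col5a1 and Col1a1 the chow arrays differed by label while the high-fat arrays hardly did or went the other way. The log2 genotype ratio on chow was 0.52 for Col3a1, 0.55 for Col1a2, 0.52 for Col5a1 and at least 0.49 for Col1a1, which was under the median on the wild-type array. On the high-fat diet it was 0.12, -0.01, 0.03 and -0.30 in the same order. Whether these ratios differ between the diets could not be tested with 1 array per group. The second probe sets of Col3a1 and Col5a1 were lower on the LASS2-/- chow array. For Col5a1 the ratio was -0.62, and for Col3a1, under the median on LASS2-/- chow, it was -0.09 when floored.

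In all, 8 chains had a second probe set with a mean at or above the median. The signs of the brightest and the second probe set were the same for 8 of 8 chains on the genotype ratio on high-fat diet, and for 4 of 8 on chow. The diet ratio had the same sign for 5 of 8 chains in wild type and 6 of 8 in LASS2-/-. These signs are of ratios without a floor. The diet ratio of Col6a2 in wild type was -0.27 log2 on its brightest probe set and at least 1.28 on its second, which was under the median on WT chow.

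**Figure D3:**
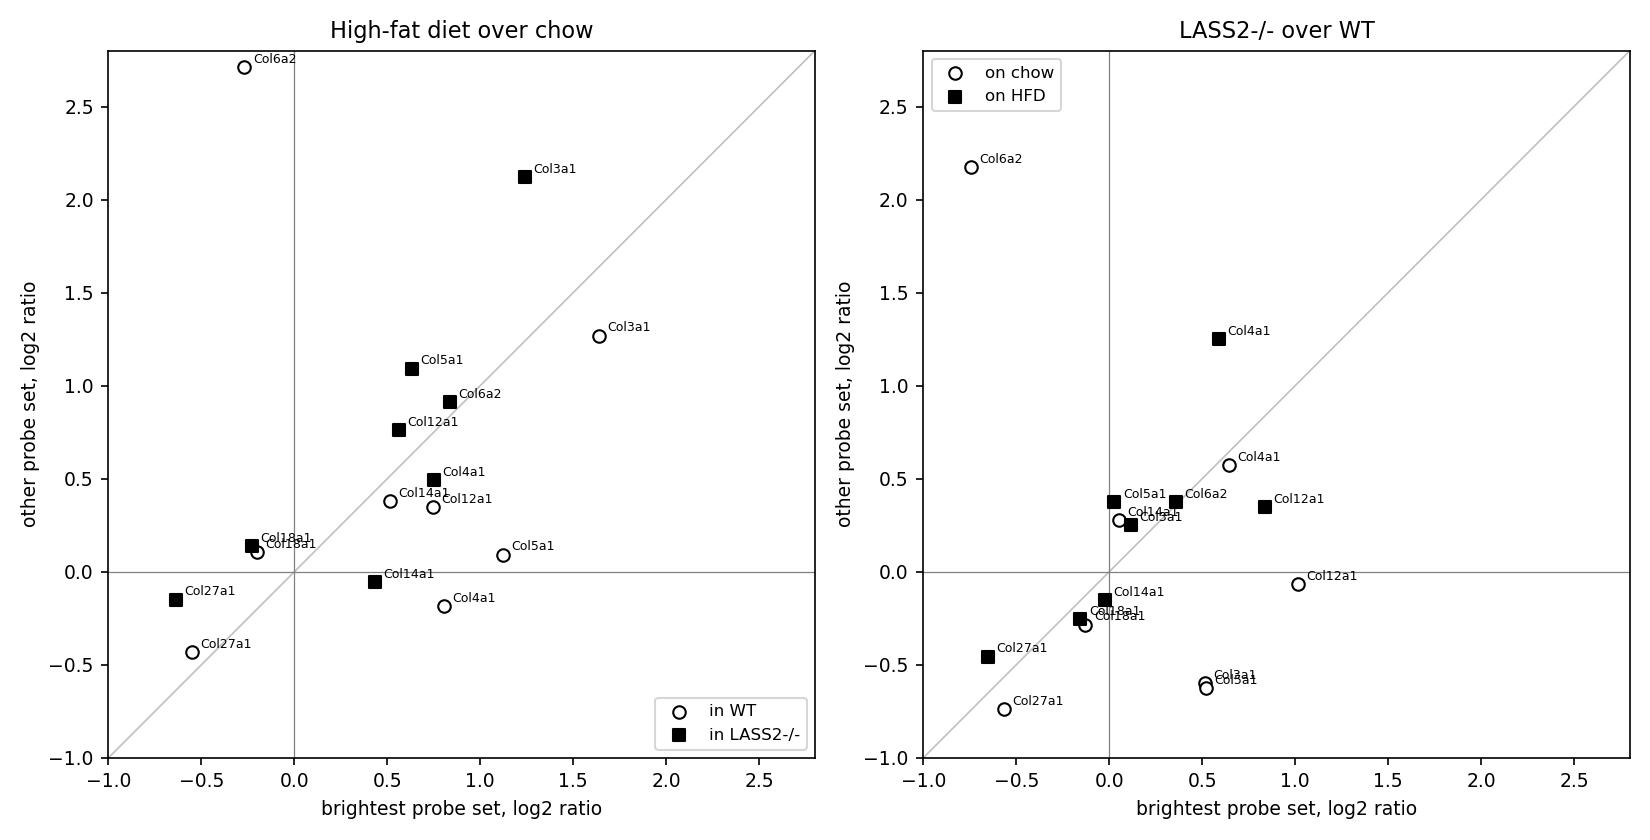
Log2 ratios of the 8 chains with a second measurable probe set, with the brightest probe set on the x axis and the other on the y axis, for diet (left) and genotype (right), without a floor, so that levels under the median enter as read. Points on the grey diagonal would be equal, and Col3a1 lies far above 0 on both axes for diet in both genotypes.

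Genes of the same family that are neighbours in the genome did not always pass limma together. On the RefSeq assembly GRCm38.p6, 7 pairs of measured chains have no other protein-coding gene between them. Col3a1 and Col5a2 are such a pair, and they passed limma for diet and for the genotype label, respectively. With the brightest probe sets both were higher on the diet in both genotypes and higher with the label on both diets. Col4a1 and Col4a2 both were higher on the diet, and Col6a1 and Col6a2 were both higher on it in LASS2-/-. In wild type the brightest probe sets of Col6a1 and Col6a2 went in opposite directions. The pairs Col9a1 with Col19a1, Col4a3 with Col4a4 and Col6a4 with Col6a5 were under the median on every array. Col4a5 with Col4a6 were under it on at least 2 arrays each.

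The dim chains carry little information. The 17 chains under the median on every array had median log2 signals of 4.25 on WT chow, 4.58 on LASS2-/- chow, 3.34 on WT HFD and 4.22 on LASS2-/- HFD. The highest value among them was 5.80, for Col11a1 on LASS2-/- chow. They include Col2a1, Col9a1, Col9a2, Col9a3, Col10a1, Col11a1, chains best known from cartilage, and Col17a1, a chain of the hemidesmosomes of skin. In MAS5 such values scatter widely, as for Col11a1, which read 4.59, 5.80, 1.66 and 5.21 on the arrays in the usual order. Col25a1, a transmembrane collagen of neurons, read 4.45, 7.36, 5.95 and 5.40, so it was above the median on LASS2-/- chow alone. It accounts for 1 of the 2 chains at least 2-fold higher with the label on chow and for the chain at least 2-fold lower with the diet in LASS2-/-, and limma passed neither (adjusted p = 0.730 and 0.907). Col8a1 and Col22a1 were near the median on all arrays, between 5.87 and 6.55, and Col11a2 was above it on WT chow alone, at 6.33.

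**Figure D4:**
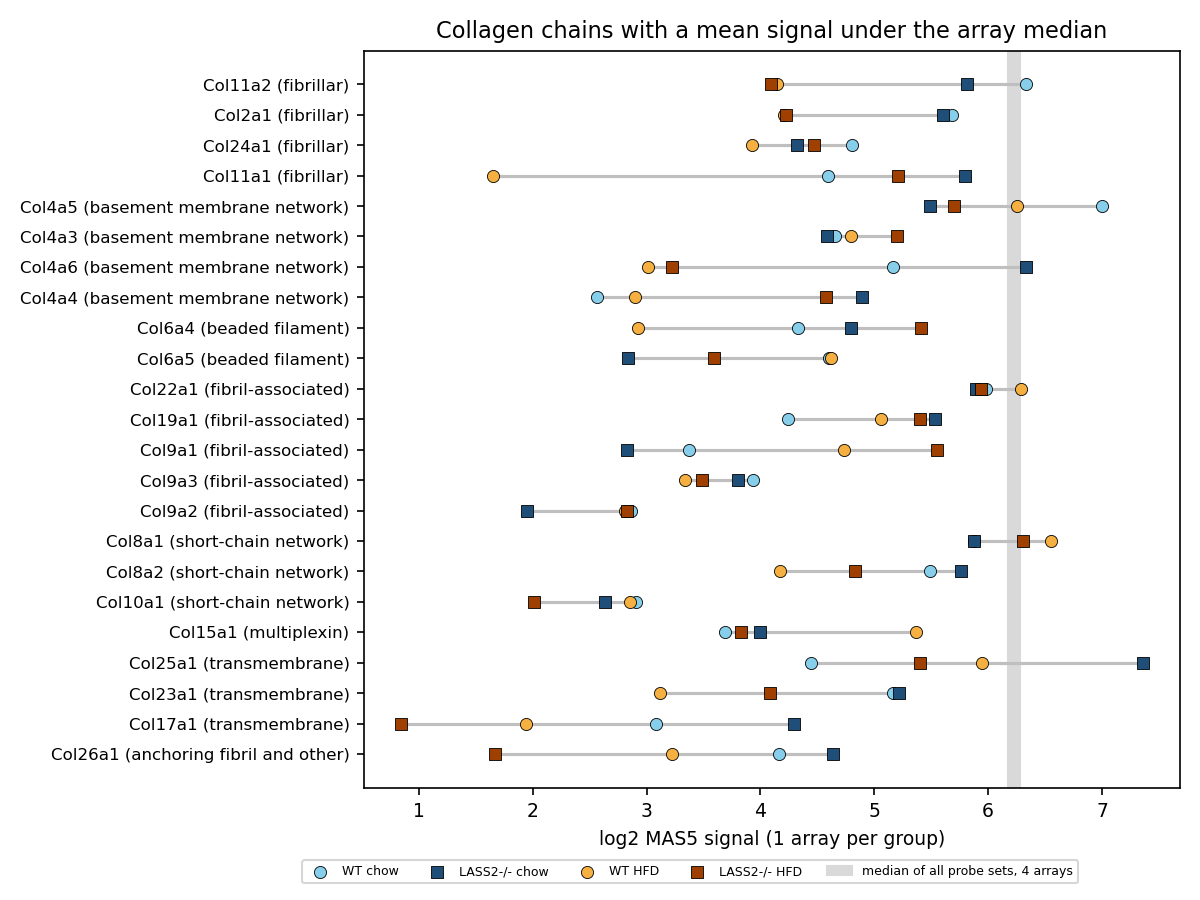
Log2 MAS5 signal (x axis) of the 23 collagen chains with a mean under the array median, drawn as in the plot of the brighter chains. Most points lie left of the grey band of array medians, and Col25a1 stands to the right of it at 7.36 on LASS2-/- chow alone.

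Genes that fold, cut, cross-link and degrade collagen were set against the same shares, 6.16% of the tested genes rising and 5.02% falling with the diet. Of 14 procollagen processing and crosslinking genes, 8 were tested, and 3 rose and 0 fell with the diet in limma. Sparc, a collagen-binding matrix protein, read 10.32 on WT chow, 10.48 on LASS2-/- chow, 11.07 on WT HFD and 11.40 on LASS2-/- HFD (0.83 ± 0.11, limma adjusted p = 0.000282). Pcolce, which enhances the removal of the procollagen C-propeptide, rose by 0.75 ± 0.17 (limma adjusted p = 0.00995). Tgm2, a transglutaminase that cross-links proteins, rose by 0.74 ± 0.09 (limma adjusted p = 9.64e-05). The floored list median was 0.03 log2 in wild type and 0.54 in LASS2-/-, and Lox, a main collagen crosslinker, was under the median on every array.

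Of 20 genes for the intracellular folding, hydroxylation and secretion of collagen, 16 were tested, and 1 rose and 1 fell with the diet, near the shares over the tested genes. The floored medians were -0.0014 log2 in wild type and -0.06 in LASS2-/-. Colgalt1, a collagen galactosyltransferase, rose by 0.51 ± 0.15 (limma adjusted p = 0.0425), and Ppib, a prolyl isomerase of the endoplasmic reticulum, changed by -0.28 ± 0.08 (limma adjusted p = 0.0403). Serpinh1, the collagen chaperone HSP47, read 8.75, 9.52, 9.24 and 9.46 in the order WT chow, LASS2-/- chow, WT HFD and LASS2-/- HFD and did not pass for diet (limma adjusted p = 0.501).

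Of 10 collagen-degrading enzymes and their inhibitors, 8 were tested, and 2 rose with the diet. Mmp12, the macrophage metalloelastase, read 3.07 on WT chow, 5.61 on LASS2-/- chow, 7.70 on WT HFD and 8.95 on LASS2-/- HFD. It was under the median on both chow arrays, so the rise was at least 2.87-fold in wild type and at least 6.39-fold in LASS2-/- (limma adjusted p = 0.000218). Mmp2, a gelatinase that degrades denatured collagen, read 6.35, 7.34, 7.81 and 8.22 in that order (1.17 ± 0.29, limma adjusted p = 0.018). Of 13 genes of TGF-beta signalling, the main known inducer of collagen genes, 10 were tested and 1 rose, the matricellular target Ccn2 (0.68 ± 0.13, limma adjusted p = 0.00331). Tgfb1 itself read 6.50 on WT chow and was under the median on the other arrays. Of 11 collagen receptors 7 were tested and 0 passed limma. In these 5 lists 0 genes passed for genotype.

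**Figure D5:**
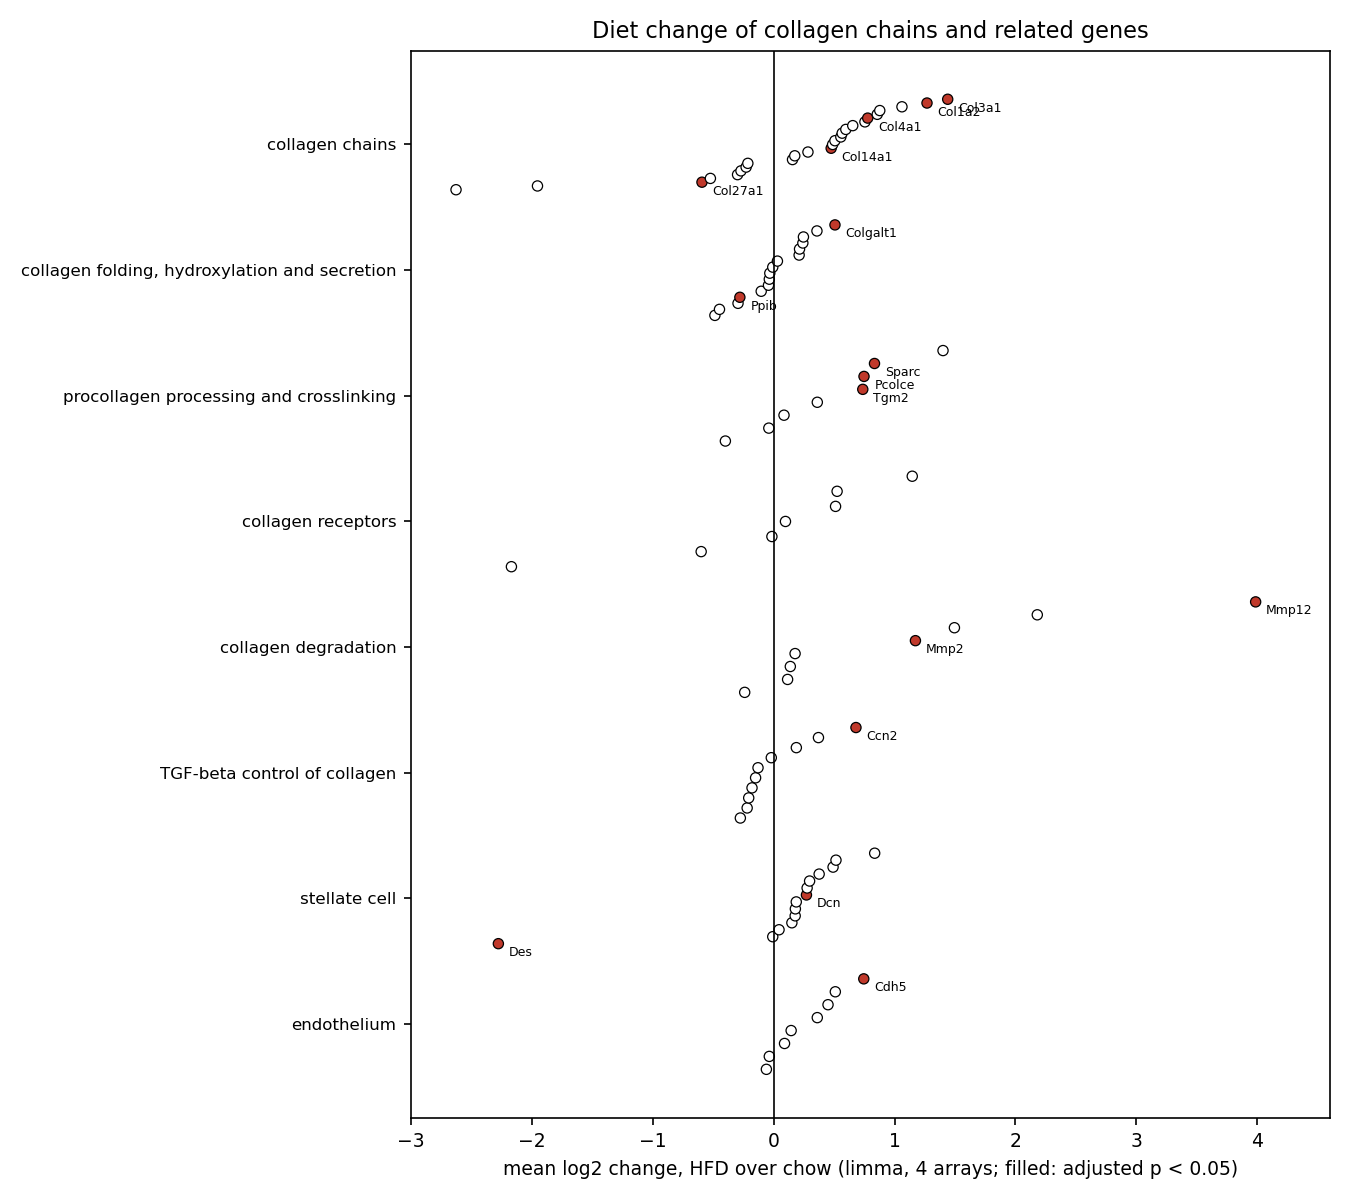
Mean log2 change of high-fat diet over chow in limma (x axis) for each tested gene of the collagen chains, the related lists, and the stellate cell and endothelial markers, 1 point per gene and sorted within a list. Filled points have adjusted p below 0.05, among them Col3a1 at 1.44, Sparc at 0.83, Mmp12 at 3.99 and Des at -2.28. The last pair rest on levels under the array median on chow and on the high-fat diet, respectively, so their plotted sizes are not measured folds.

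Markers of the cells known to make collagen were measured beside the chains. In whole liver, more cells of a type and more RNA per cell cannot be told apart. All 14 stellate cell markers were tested, and 1 rose and 1 fell with the diet, near the shares of 6.16% and 5.02% over the tested genes. The sum of their linear signals was 26217 on WT chow, 25700 on LASS2-/- chow, 32567 on WT HFD and 27741 on LASS2-/- HFD, so it was highest on WT HFD. Such sums, here and below, are carried mostly by the brightest genes, in this list Dcn, Colec11, Reln and Rgs5. The median log2 diet ratio over the 14 markers was 0.39 in wild type and 0.13 in LASS2-/-. Dcn, the collagen-binding proteoglycan decorin, rose by 0.27 ± 0.08 (limma adjusted p = 0.0499). Des, which encodes desmin, read 7.52, 7.80, 5.49 and 5.27 in the same order and fell, at least 2.51-fold lower in wild type and at least 3.04-fold in LASS2-/- (limma adjusted p = 0.00491).

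The 7 portal fibroblast markers, with Thy1, Mfap4 and Clec3b under the median on every array, summed to 726, 732, 811 and 1028, and 0 of 4 tested passed. Acta2, the smooth muscle actin of myofibroblasts, read 8.39, 7.79, 8.66 and 8.83 (limma adjusted p = 0.073 for diet), while Myh11 and Cnn1 were under the median on every array. Of 8 endothelial markers 1 rose with the diet, Cdh5, the endothelial cadherin (0.75 ± 0.17, limma adjusted p = 0.013), and their sum was 8800, 9283, 10204 and 9502. Of 7 macrophage markers, 2 rose with the genotype label, where 0.514% of the tested genes rose. These were Marco (2.48 ± 0.24, limma adjusted p = 0.000524) and Lyz2 (0.64 ± 0.13, limma adjusted p = 0.0403), and Lyz2 also rose with the diet. The sum of the 7 macrophage markers was 14797 and 14786 on the wild-type arrays, WT chow first, against 18780 and 22618 on the LASS2-/- arrays. The adipocyte genes Adipoq and Lep were under the median on every array. The sum of 4 cholangiocyte markers was lowest on WT HFD, at 243, and highest on LASS2-/- HFD, at 347. For the mesothelium the sums lay between 161 and 317 and for skeletal muscle between 146 and 238, each lowest on LASS2-/- HFD, and 0 markers of these lists passed limma for diet or genotype. The part of any of these cells in the collagen values was not tested.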

How the data were processed

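The authors deposited a table of log2 signals, 1 per probe set and array, made with MAS5 per the submitters' processing notes, with later steps not given in the sources used here. It held 45037 probe sets, of which 34945 had 1 gene symbol in the platform annotation, 932 had several and 9160 had none here. After conversion to linear signal the trimmed mean was 495.8 to 496.0 on the 4 arrays, so no further scaling was applied. Precision is limited by having only 4 arrays, and no detection calls were used.

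A gene was represented by its brightest probe set and was tested where at least 1 array put it at or above the array median (12444 of 18193 genes). Fold values and counts of 2-fold differences rest on levels floored at the array median, where a ratio with 1 side under it is a bound. Limma, the direction counts over the 19 brighter chains and log2 ratios of second probe sets used signals without a floor, unless the text says floored. An additive model of genotype and diet was fitted in limma 3.58.1 (R 4.3.3), with a trend in signal and Benjamini-Hochberg adjustment over all genes tested, and was tested on simulated data. Its 4 arrays and 3 coefficients leave 1 residual degree of freedom. SEs after ± are moderated. Other computations used Python 3.11.15, pandas 2.3.3 and matplotlib 3.10.9.

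The members, gene lists, tests and alternatives were chosen with earlier results of these data known. Full values were given for chains at the median on all 4 arrays, at least 2-fold apart in both ratios of a factor or passing limma; other chains named with values, and list genes beyond those passing and the brightest 4, were chosen after their values were seen.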

Additional observations from a re-analysis of the deposited data

Results flagged for a closer look

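Among chains at or above the median on all 4 arrays, Col6a2 was singled out because its opposite genotype ratios lay at least 2-fold apart. It had opposite genotype ratios on the diets, which were not tested against each other. The LASS2-/- array was 0.74 log2 below the wild-type array on chow (ratio -0.74) and 0.36 above it on high-fat diet, a difference of 1.10 log2. Its second probe set, under the median on WT chow, had genotype ratios of at least 0.74 on chow and 0.37 on high-fat diet. The cause was not tested.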

How the results depend on the processing

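With 1 array per group no array could be left out, and signals near the array median limit what the ratios can show. No paired analysis was possible because each group had only 1 array. Limma called 106 genes for genotype and 1392 for diet. Calls for genotype were 22 with quantile normalization, 19 with equal medians, 39 over averaged probe sets, 52 with no filter on signal and 0 in the fit with no trend, which left 812 at an unadjusted p below 0.05. Calls for diet were 872 with equal medians, 719 over averaged probe sets and 0 without trend, where 1789 had such a p. Of the chains, 2 passed for genotype, and 0 did with quantile normalization, equal medians, averaged probe sets, no filter on signal or no trend, where 6, 5, 4, 6 and 6 had an unadjusted p below 0.05. For diet 5 chains passed, 2 over averaged probe sets (Col1a2 and Col3a1) and 0 without trend, where 14 had such a p. Col14a1 turned to -0.24 log2 over averaged probe sets.

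The chains at least 2-fold apart were 2 for genotype on chow, 0 for genotype on high-fat diet, 4 for diet in wild type and 2 for diet in LASS2-/-. A floor at the 25th percentile gave 9, 2, 10 and 7, and a 1.5-fold threshold 6, 5, 8 and 11, in that order. The floor at the 25th percentile covered 38 chains instead of 25. Shares over all genes are not given for these settings, so the larger counts are not a result about collagens. Averaging all probe sets gave 0 for genotype on chow and 2 for diet in wild type, and with equal medians 4 for diet in LASS2-/-. The median floored diet ratio of the 25 tested chains, 0.34 log2 as the mean of both genotypes, was 0.0711 over averaged probe sets (18 chains) and 0.21 over values floored at the 25th percentile (38 chains). The genotype median was 0.09. In all, 38 of 66 alternative values of these counts and medians stayed within 1.5 times the count, or close to the median, reported above. The cause of each change was not tested.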
